A study of Mus musculus with 6 samples.

Results

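The matrix metalloproteinases (MMPs), the ADAMTS proteases and the tissue inhibitors of metalloproteinases (TIMPs) were compared between juxtaglomerular (JG) cells and renal mesenchymal stromal cells (MSC) of the mouse. The members were all genes of the array's annotation named Mmp, Adamts or Timp with a number, each read by its brightest probe set among those paired with 1 gene. They numbered 37 of the 18193 genes measured: 18 MMPs, 15 ADAMTS and 4 TIMPs. A RefSeq gene table for GRCm38.p6 lists 46 genes by these names, and the 9 others (Mmp15, Mmp21, Mmp25, Mmp27, Mmp28, Adamts2, Adamts13, Adamts14 and Adamts17) were not analysed here.

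The JG cells came from adult C57BL6 Ren1c YFP mice and were sorted for the yellow fluorescent protein. The MSC, selected on CD44 from mice of that strain, were then grown to confluence in serum-containing medium, and the labels repeat that medium for the JG samples, so whether those were cultured is not settled. Total RNA of 3 JG and 3 MSC samples was read on single-channel Affymetrix arrays. Nothing in the labels tells whether replicates are separate animals or cultures. Each p-value therefore measures only the spread between these samples, which may be technical.

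MMPs are zinc proteases that cleave collagens, other matrix proteins and each other's inactive precursors. ADAMTS proteases are secreted relatives with thrombospondin repeats, several of which cut proteoglycans such as aggrecan and versican or trim procollagens. TIMPs bind the active site of these enzymes, and in the kidney their balance with MMPs is studied mainly in matrix turnover and fibrosis.

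Intensities are linear values as deposited. Differences are JG minus MSC, taken on log2 of intensity plus 16, with their standard error (SE). A gene was called when its adjusted p from limma, corrected over all genes by the Benjamini-Hochberg method, was under 0.05. Where the dimmer group lies near or below 16, the added 16 makes the difference smaller than that of the intensities themselves. Detection calls were not used here, and a low value is not an absence. In bulk samples, fewer cells of a type and less RNA per cell cannot be told apart.

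Several features of the arrays touch the values below. The array medians ran from 27.41 to 36.5 in JG and from 27.3 to 34.06 in MSC, and means without the outer 2% on either side were 198, 153 and 194.5 in JG samples 1 to 3 and 194 to 212 in MSC. The JG samples were more unlike each other than the MSC samples: on the log2 scale the SD among replicates had a median over genes of 0.543 in JG and 0.26 in MSC. Transcripts of kidney tubules were present in every JG sample, with summed intensities of 8 proximal tubule markers from 23516 to 30739 in JG and from 345 to 622 in MSC. The list for JG cells, of which 6 of 8 genes were measured, summed to 2740, 3563 and 3609 in JG samples 1 to 3 and to 656 to 1060 in MSC. Rgs5, Crip1 and Sparcl1 of that list were called higher in JG. Aldh1a1 had 237, 89.39 and 200 in JG and 843, 336 and 627 in MSC, below every MSC sample though not called, and the connexin gene Gja4 was below 16 in all JG samples. Ren1 was not analysed here.

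Members called between the groups were all lower in JG. They were Adamts4, Timp1, Mmp11, Mmp10, Mmp13 and Adamts6, so 6 of 37 members were lower, against 7.63% of all genes. None was called higher, against 7.7% of all genes. At an unadjusted limma p under 0.05 the counts were 2 higher and 7 lower, beside 2788 higher and 2996 lower of all 18193 genes. An unmoderated t statistic with the same adjustment called 1 higher and 5 lower, against 4.46% and 2.76% of all genes. Groups did not overlap for 15 members, against 38.7% of all genes. They were 10 members lower in JG (18.5% of all genes) and 5 higher in JG (20.2% of all genes). The median difference of the 37 members was -0.05, and that of all genes was 0.07. By brightness the medians were -0.46 over the 22 members above a mean of 100 in a group and 0.16 over the other 15, a split that itself depends on the values. By family, 3 of 18 MMPs, 2 of 15 ADAMTS and 1 of 4 TIMPs were called lower.

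**Figure D1:**
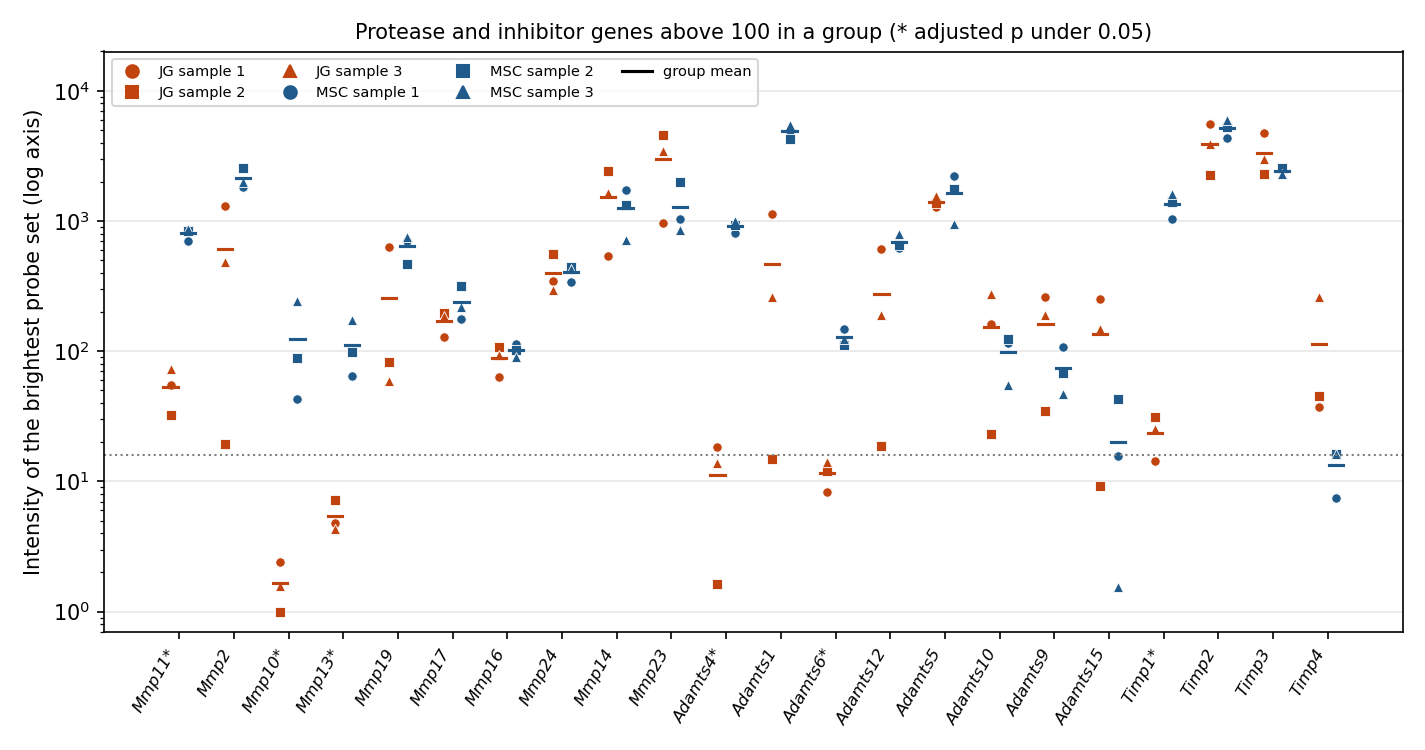
Intensity of the brightest probe set (log axis) for the 22 members with a mean over 100 in either group. Each point is 1 sample, JG in orange to the left of MSC in blue, short lines are group means, the dotted line marks 16, and asterisks mark the 6 called genes. In the called genes the JG points lie below every MSC point, and Mmp2, Adamts1 and Adamts12 spread widely among the JG samples.

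The stretches just upstream of the transcription start are shown for the called members that have an entry in the RefSeq promoter table (GRCm38.p6), because members that moved together can be compared there for shared letters. Each line holds the 120 bases before the annotated start, 5′ to 3′ on the gene's own strand. Capitals mark TGAGTCA or its reverse complement TGACTCA, the consensus letters of the AP-1 transcription factor, searched on both strands, and TATAAA, the consensus of the TATA box, searched on the gene's strand. These motifs did not overlap. The stretches lie at chr9:7502222-7502341 (plus strand) for Mmp10, chr9:7272394-7272513 (plus strand) for Mmp13, chr10:75932503-75932622 (minus strand) for Mmp11 and chrX:20870046-20870165 (plus strand) for Timp1.
Mmp10: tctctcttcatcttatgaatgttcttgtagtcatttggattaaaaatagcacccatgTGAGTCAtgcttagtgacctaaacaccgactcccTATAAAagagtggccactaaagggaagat
Mmp13: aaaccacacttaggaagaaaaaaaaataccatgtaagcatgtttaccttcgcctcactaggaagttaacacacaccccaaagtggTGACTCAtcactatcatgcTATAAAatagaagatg
Mmp11: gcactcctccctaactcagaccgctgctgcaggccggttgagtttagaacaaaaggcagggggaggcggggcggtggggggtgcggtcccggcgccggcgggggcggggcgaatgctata
Timp1: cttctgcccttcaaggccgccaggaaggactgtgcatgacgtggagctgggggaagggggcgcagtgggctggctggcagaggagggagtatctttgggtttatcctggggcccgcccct

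The first pair held both motifs and the second pair neither. In Mmp10 the AP-1 letters began 63 bases before the start and the TATA letters 29 bases before it, and in Mmp13 these distances were 35 and 16 bases. Of 32851 promoter stretches of this length, 2.3% held the AP-1 letters, 4.19% the TATA letters and 0.17% both. A match describes letters in this window and is not a binding site.

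The collagenases and stromelysins, most of which are encoded side by side, were dim in JG. The RefSeq table places 10 protein-coding genes in one run on chromosome 9, all of them MMPs, in the order Mmp13, Mmp12, Mmp1b, Mmp3, Mmp1a, Mmp10, Mmp8, Mmp27, Mmp20 and Mmp7, and 9 of them were measured. Mmp13, the main collagenase of rodents, had intensities of 4.79, 7.16 and 4.28 in JG samples 1 to 3 and 64.75, 97.95 and 174.49 in MSC samples 1 to 3 (log2 difference -2.50 ± 0.35, adjusted p = 0.00629 from limma). Mmp10, stromelysin 2, which can activate other MMP precursors, had 2.42, 1 and 1.58 in JG and 42.85, 88.18 and 241.27 in MSC (-2.72 ± 0.53, adjusted p = 0.0198 from limma). Every JG value of these genes lay below 16 and every MSC value above it.

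The other genes of the run were not called. Mmp3, stromelysin 1, had 26.18, 30.66 and 18.98 in JG and 32.57, 24.30 and 99.99 in MSC, so the groups overlapped. Mmp12, the macrophage elastase, had at most 6.68 in JG and 3.73, 20.25 and 27.00 in MSC. MSC sample 3 held the highest intensity of Mmp13, Mmp12, Mmp3 and Mmp10 alike. Mmp1a and Mmp1b, the rodent counterparts of human interstitial collagenase, stayed below 16 on all 6 arrays, where how far an intensity carries signal was not tested. Their groups did not overlap: Mmp1b had 5.44 to 7.97 in JG and 1 to 1.44 in MSC.

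At the far end of the run, Mmp7, the epithelial matrilysin, had 30.79, 34.33 and 13.46 in JG and 3.90, 12.14 and 11.35 in MSC (0.73 ± 0.31, adjusted p = 0.161 from limma). Its groups did not overlap, with JG higher. Mmp20, the enamel protease, had 2.70 to 22.51 in JG and 4.95 to 9.78 in MSC.

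**Figure D2:**
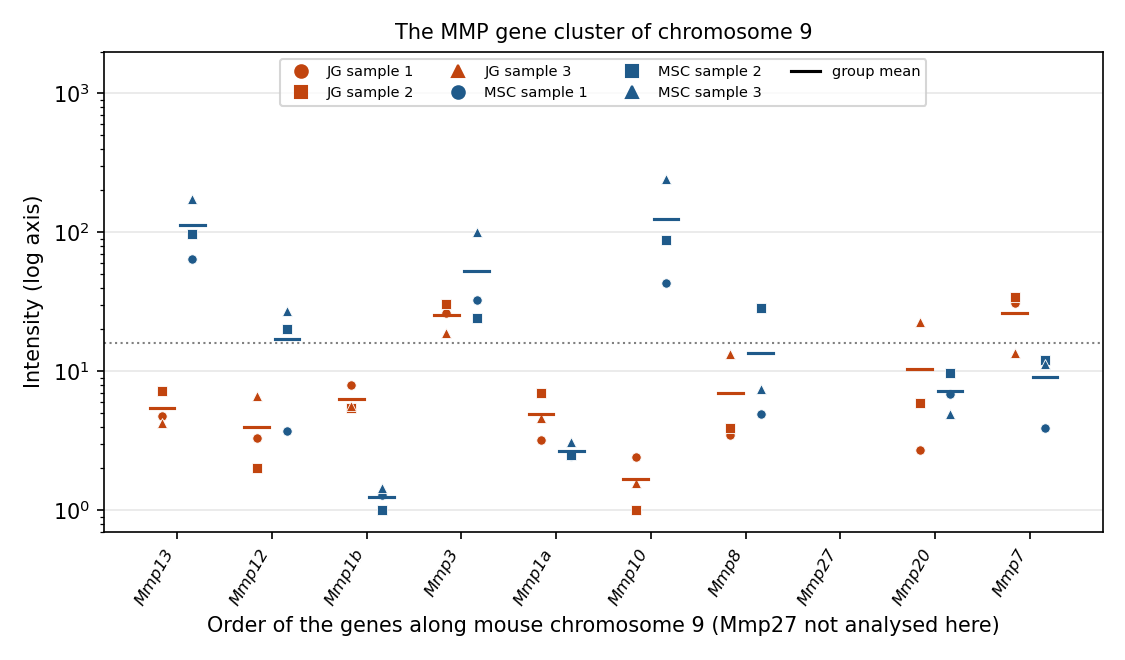
Intensity (log axis) of the MMP genes in their order along mouse chromosome 9, each point 1 sample, JG in orange to the left of MSC in blue, short lines group means and the dotted line 16. Mmp13 and Mmp10 are clearly brighter in MSC, whereas Mmp1b, Mmp1a and Mmp7 lie higher in JG at low intensity, and Mmp27 was not analysed here.

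Among the members with a promoter entry, the AP-1 letters were found in genes of this run and in no other. The table held 26 stretches of 23 members: 7 of the 11 stretches of the run carried the AP-1 letters, belonging to Mmp1a, Mmp1b, Mmp3, Mmp7, Mmp10, Mmp12 and Mmp13, and 0 of the 15 stretches of other members did. Of these 7 genes, Mmp10 and Mmp13 were called lower in JG and the other 5 were not called, with differences from -0.65 for Mmp12 to 0.73 for Mmp7. Genes with both motifs, such as Mmp10 (-2.72) and Mmp1a (0.16), thus included called and uncalled members.

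The enzymes known from blood leukocytes were dim in both groups. Mmp8, the neutrophil collagenase, had 3.47, 3.90 and 13.43 in JG and 4.95, 28.45 and 7.48 in MSC. Mmp9, gelatinase B, a product of neutrophils and macrophages, had 8.54, 13.96 and 13.40 in JG and 15.08, 7.26 and 16.49 in MSC, and neither gene was called. The 7 measured neutrophil markers summed to 240, 127 and 172 in JG samples 1 to 3 and to 42.94 to 57.93 in MSC. Of these, Camp was called higher in JG, with 37.76, 34.30 and 29.82 in JG and 10.38, 8.31 and 3.28 in MSC. Mpo, S100a8, S100a9 and Ltf were not called, but every JG value lay above every MSC value, while Elane and Ngp were below 16 in every JG sample. The 8 macrophage markers summed to 790, 1880.4 and 2850.3 in JG and to 151 to 529 in MSC, the highest MSC sum being in sample 2. Of these markers only Csf1r (343, 378 and 1958 in JG) and C1qb (270, 1318 and 659 in JG) were called higher. For Adgre1, Cd68, C1qa, C1qc, Lyz2 and Cd14 the groups overlapped, and the means of Cd68 and Cd14 were lower in JG. The part of these cells was not tested.

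Mmp11 was lower in JG at intensities above 16. This gene, stromelysin 3, encodes an enzyme that the protease furin activates before secretion. It had 55.04, 32.31 and 73.11 in JG and 703, 845 and 865 in MSC (-3.60 ± 0.30, adjusted p = 0.000784 from limma). All JG values were above 16 and the groups were far apart. The difference was -3.95 with 1 and -2.89 with 64 added in place of 16. Furin itself had 3661, 3253 and 3823 in JG and 2201, 2666 and 2924 in MSC, and it showed no called difference (0.47 ± 0.23, adjusted p = 0.219 from limma), although its groups did not overlap.

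Mmp2 was bright in MSC and differed 67.4-fold among the JG samples. Mmp2 is gelatinase A, a stromal enzyme whose precursor is activated at the cell surface by Mmp14 with the help of Timp2. Its intensities were 1309, 19.42 and 486 in JG and 1833, 2567 and 1995 in MSC (-2.89 ± 1.25, adjusted p = 0.172 from limma). JG sample 2 lay close to 16, while JG sample 1 came within reach of MSC. A second Mmp2 probe set showed the same order, with 983, 23.01 and 266 in JG and 1396, 2146 and 1339 in MSC.

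Mmp14, the membrane enzyme that activates Mmp2, did not follow it. Its brightest probe set had 539, 2426 and 1625 in JG and 1721, 1323 and 718 in MSC (0.13 ± 0.62, adjusted p = 0.910 from limma), highest in the JG sample in which Mmp2 was lowest. The other Mmp14 probe sets gave 288, 714 and 129 in JG against 808, 1515 and 841 in MSC, and 373, 892 and 144 in JG against 875, 993 and 573 in MSC, and neither was called over all probe sets (differences of -1.69 and -1.08). JG sample 2 was the highest JG sample on all 3 probe sets. The sign of the group difference depended on the probe set.

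The remaining membrane-type enzymes were not called by their main probe sets. Mmp17, anchored by a lipid tail, had 129, 197 and 185 in JG and 177, 319 and 219 in MSC. Mmp24, a transmembrane enzyme, had 346, 561 and 293 in JG and 340.3, 444 and 425 in MSC. For both genes the groups overlapped and no call was made (adjusted p = 0.378 and 0.922 from limma). Mmp16 had 63, 108 and 93.89 in JG and 114, 102 and 91.02 in MSC by its main probe set, but the dimmest of its 4 probe sets was called lower in JG (16.47, 9.70 and 2.78 against 42.45, 81.81 and 55.02, adjusted p = 0.0272 from limma over all probe sets). Over all probe sets that name 1 gene, 7.47% were called lower and 5.4% higher in JG. The call of that Mmp16 probe set held in 1 of the 6 fits that left out a sample, with adjusted p-values up to 0.106. All 4 Mmp16 probe sets had a lower mean in JG, the remaining ones at -0.67 and -1.15 and not called. With probe sets averaged per gene, the difference of Mmp16 was -0.90 (adjusted p = 0.0607 from limma).

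Mmp19 and Mmp23 complete the MMPs above 100 in a group, and neither was called. Mmp19, a secreted enzyme, had 633, 81.98 and 59.43 in JG and 703, 465 and 747 in MSC (-1.93 ± 0.81, adjusted p = 0.163 from limma), so that JG sample 1 stood with MSC and the others far below. Its second probe set had 131, 8.21 and 64.43 in JG and 220, 231 and 149.9 in MSC and was not called either. Mmp23, which is held in the membrane by its amino-terminal end, had 962, 4553 and 3463 in JG and 1027, 1973 and 857 in MSC by its brightest probe set (1.03 ± 0.64, adjusted p = 0.319 from limma). A second Mmp23 probe set pointed the other way, with 99.61, 20.99 and 76.50 in JG and 307.0, 307.1 and 153 in MSC (-1.83 ± 0.51, adjusted p = 0.0673 from limma over all probe sets). The direction of Mmp23 is therefore not settled by these arrays.

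**Figure D3:**
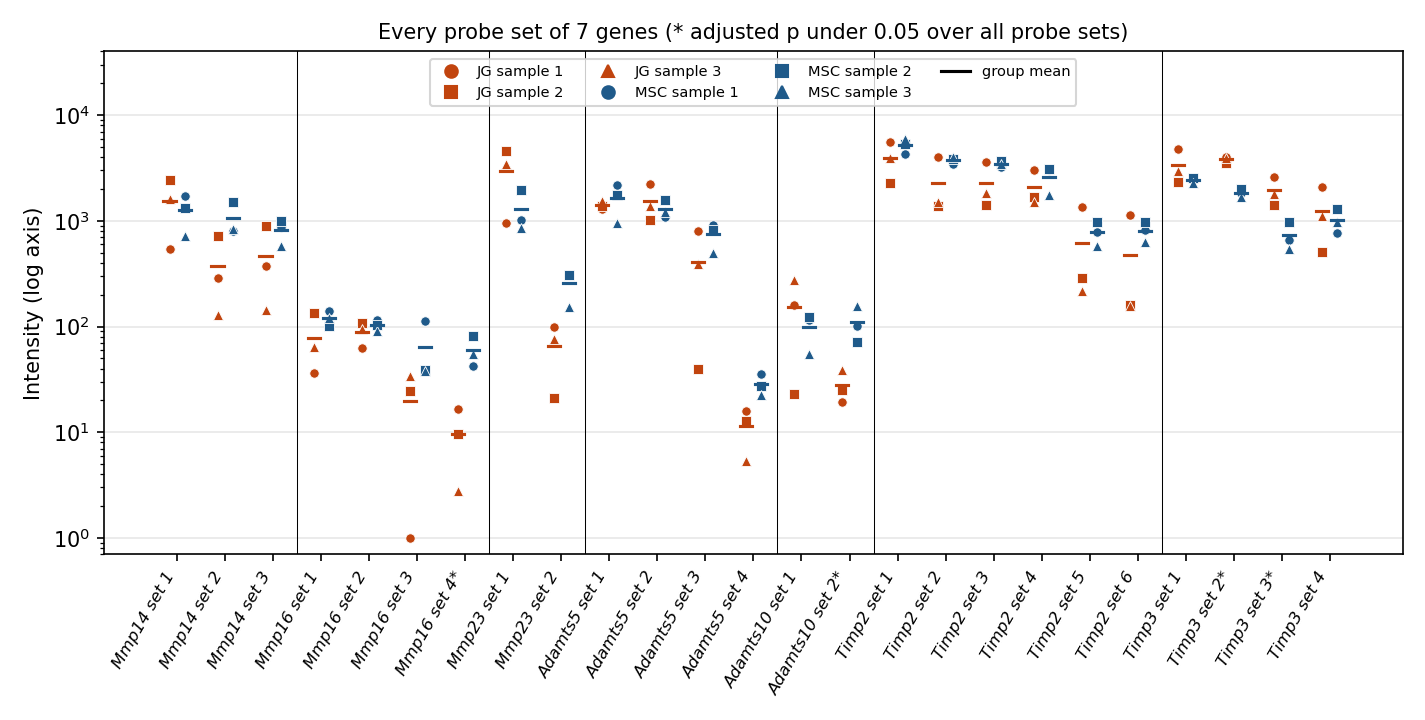
Intensity (log axis) of every probe set of 7 members, numbered by mean intensity (Mmp16 is read in the text by set 2, the highest on the log2 scale), each point 1 sample, JG in orange to the left of MSC in blue, short lines group means. Asterisks mark an adjusted p under 0.05 over all probe sets. For Mmp14, Mmp23, Adamts5 and Adamts10 the probe sets of 1 gene differ in direction, whereas all 6 of Timp2 have a lower mean in JG and all 4 of Timp3 a higher one.

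Among the ADAMTS genes that cut proteoglycans, Adamts4 stood apart. Adamts4 encodes an aggrecanase. Its brightest probe set had 18.32, 1.64 and 13.85 in JG and 814, 933 and 991 in MSC (-5.14 ± 0.31, adjusted p = 0.000222 from limma). The second probe set had 32.47, 21.38 and 61.64 in JG and 340.1, 215 and 207.5 in MSC and was called in the same direction (-2.34 ± 0.36, adjusted p = 0.0111 from limma over all probe sets). Of the 6 called members only Adamts4 and Adamts6 have more than 1 probe set here, and of these Adamts4 had both called.

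Adamts5, the other main aggrecanase, was not called by any of its 4 probe sets. Its brightest probe set had 1281, 1384 and 1555 in JG and 2206, 1754 and 949 in MSC (-0.14 ± 0.35, adjusted p = 0.826 from limma). The second had 2249, 1020.3 and 1385 in JG and 1087, 1559 and 1211 in MSC. Both were bright in every sample, and the groups overlapped on both. Another probe set had 801, 40.04 and 386 in JG and 921, 825 and 501 in MSC, with JG sample 2 far below the rest. The dimmest had 15.98, 12.73 and 5.30 in JG and 35.79, 27.15 and 22.67 in MSC (-0.71), without overlap.

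Adamts1, which cuts versican and aggrecan and lies next to Adamts5 on chromosome 16 with 0 protein-coding genes between them, had 1122, 14.93 and 261 in JG and 4899, 4285 and 5481 in MSC. Its difference of -4.51 ± 1.21 was not called (adjusted p = 0.0539 from limma), and the JG values spread 75.1-fold against 1.28-fold in MSC. All JG values lay below all MSC values. The call appeared in 8 of 17 alternative settings, among them the fits without JG sample 1 (-5.72, adjusted p = 0.00948) and without JG sample 2 (-3.12, adjusted p = 0.0283). 

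Adamts9 and Adamts15, which also cut proteoglycans, had higher means in JG and were not called. Adamts15 had 251, 9.28 and 149 in JG and 15.67, 43.08 and 1.56 in MSC (1.70 ± 0.93, adjusted p = 0.265 from limma). Adamts9 had 262, 35.03 and 190 in JG and 108, 67.66 and 47.17 in MSC (0.72 ± 0.67, adjusted p = 0.503 from limma). By these probe sets, JG samples 1 and 3 were above every MSC sample in each gene and JG sample 2 was not. Another Adamts9 probe set had 41.65, 32.88 and 24.80 in JG and 19.28, 7.32 and 9.13 in MSC, without overlap. On the dimmest Adamts9 probe set the groups overlapped (-0.10), and neither of these was called over all probe sets. Without JG sample 2, Adamts15 was called higher (2.71, adjusted p = 0.0331 from limma), in a fit that called 8.46% of all genes higher and 7.07% lower. Adamts8 and Adamts20 were dim, with all values between 3.95 and 28.58.

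Adamts6 was the sixth called member. It had 8.28, 12.10 and 14.21 in JG and 149, 111 and 125 in MSC (-2.39 ± 0.23, adjusted p = 0.00141 from limma), with every JG value below 16. Its second probe set had 14.56, 28.45 and 42.80 in JG and 143, 39.80 and 58.62 in MSC, with no call (adjusted p = 0.201 from limma over all probe sets). The groups overlapped on that probe set, through JG sample 3 and MSC sample 2.

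Adamts12, which cleaves cartilage oligomeric matrix protein, had 611, 18.58 and 189 in JG and 615, 649 and 791 in MSC (-2.08 ± 0.98, adjusted p = 0.202 from limma). JG sample 1 almost reached the lowest MSC sample, and on a dim second probe set the groups overlapped (-0.08). Adamts16, a gene linked to blood pressure in rats, had 163, 55.15 and 42.23 in JG and 16.78, 10.42 and 15.02 in MSC (1.60 ± 0.45, adjusted p = 0.0610 from limma). By this probe set, every JG value of Adamts16 was above every MSC value. The gene was called in 4 alternative settings, including the fit without JG sample 1 (14% of all genes called higher and 14.5% lower in that fit). On its dim second probe set the groups overlapped, with 4.84, 29.60 and 5.10 in JG and 8.79, 3.22 and 1 in MSC.

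Adamts10, which binds fibrillin microfibrils, was read differently by its 2 probe sets. The brighter had 160.5, 23.23 and 275 in JG and 115, 124 and 54.88 in MSC and was not called. The dimmer had 19.30, 24.96 and 39.18 in JG and 102, 70.68 and 158 in MSC and was called lower (-1.49 ± 0.34, adjusted p = 0.0383 from limma over all probe sets), a call that held in 1 of the 6 fits without a sample. Adamts3, a procollagen N-proteinase, had 14.13, 12.74 and 6.65 in JG and 15.67, 17.88 and 37.23 in MSC and was not called. Adamts7, Adamts18 and Adamts19 had values from 1 to 27.01 and were not called.

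**Figure D4:**
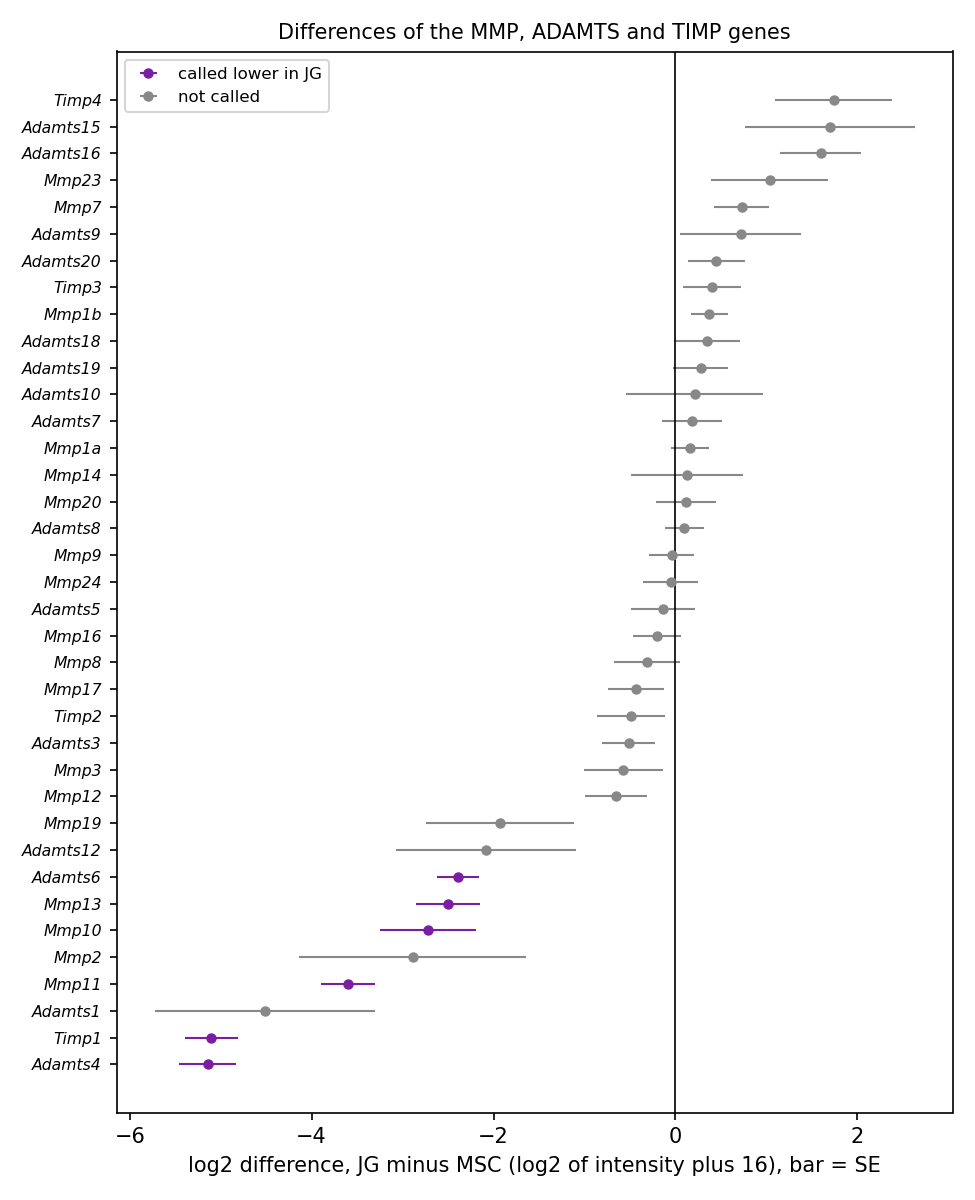
Log2 difference, JG minus MSC, of all 37 members on log2 of intensity plus 16, with bars of 1 SE, ordered by size. Purple points are the 6 called members, all to the left of 0, and the wide bars of Mmp2, Adamts1 and Adamts12 reflect the spread among the JG samples.

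The inhibitors divided between 1 gene that was far lower in JG and others that were not called by their brightest probe set. Timp1, the soluble and inducible inhibitor, had 14.29, 31.43 and 25.20 in JG and 1040, 1389 and 1612 in MSC (-5.11 ± 0.29, adjusted p = 0.000185 from limma). The groups were far apart. Timp1 kept its call in all 17 alternative settings, as did Adamts4 and Mmp11.

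Timp2, which both inhibits MMPs and assists the activation of Mmp2, was bright everywhere. Its brightest probe set had 5563, 2256 and 3899 in JG and 4299, 5277 and 5991 in MSC (-0.49 ± 0.38, adjusted p = 0.418 from limma). All 6 Timp2 probe sets had a lower mean in JG, with differences from -0.36 to -1.33, and none was called over all probe sets. On each of them JG sample 1 was the highest JG sample.

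Timp3, the inhibitor that is bound to matrix and also blocks Adamts4 and Adamts5, had a higher mean in JG on all 4 of its probe sets, 2 of which were called. Its brightest probe set had 4764, 2306 and 2965 in JG and 2454, 2534 and 2278 in MSC (0.40 ± 0.32, adjusted p = 0.434 from limma). The second had 4055, 3562 and 3939 in JG and 1839, 1982 and 1678 in MSC (1.07 ± 0.21, adjusted p = 0.0245 from limma over all probe sets). The next had 2600.3, 1427 and 1793 in JG and 659, 975 and 546 in MSC (1.40 ± 0.34, adjusted p = 0.0467 from limma over all probe sets). The dimmest had 2085, 510 and 1105 in JG and 766, 1308 and 984 in MSC (0.09 ± 0.53) and was not called. On it and on the brightest the groups overlapped, with JG sample 2 below at least 1 MSC sample. On the called probe sets the groups did not overlap, and their calls held in 2 and 1 of the 6 fits without a sample.

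Timp4 had 37.48, 45.56 and 260 in JG and 7.43, 16.14 and 16.38 in MSC (1.74 ± 0.64, adjusted p = 0.121 from limma). All JG values were above all MSC values, with JG sample 3 far above the others. Its second probe set was dim, at 7.76 to 26.08 in JG and 4.59 to 8.64 in MSC.

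Mmp2, Mmp19, Adamts1 and Adamts12 spread widely among the JG samples, and the summed markers of several cell types had a like order. These genes, chosen after their values were seen, were highest in JG sample 1, and all but Mmp19 were lowest in JG sample 2. The 8 fibroblast markers summed to 29366, 10885 and 15658 in JG samples 1 to 3 and to 13613 to 15496 in MSC. Of these markers, Pdgfra, the receptor that marks many fibroblasts, had 1464, 32.82 and 398 in JG and 178, 35.96 and 43.73 in MSC, and 7 of the 8 were highest in JG sample 1. No fibroblast marker was below 16 in all JG samples. The same order, highest in JG sample 1 and lowest in JG sample 2, was found for the summed markers of the proximal tubule (30739, 23516 and 30618), the loop and distal tubule (15258, 8770 and 12254), the collecting duct (4767, 2660.2 and 3812) and the endothelium (1042, 669 and 976). It was found as well for neutrophil markers (240, 127 and 172) and for the sum of MSC surface markers (4146, 3651 and 4073). The latter list also holds Pdgfra, and its genes differed. Pdgfra, Thy1 and Cd44 had this order, Nt5e, Itgb1 and Eng had the reverse, and Pdgfrb was highest in JG sample 3. Other lists were lowest in JG sample 1. These were the sums for macrophages (790, 1880 and 2850), podocytes and parietal cells (552, 1070.5 and 1829) and JG cells (2740, 3563 and 3609). In the JG cell list only Rgs5 (1105, 2343 and 2120) and Gja5 were lowest in JG sample 1. Gja4, Aldh1a1, Crip1 and Sparcl1 were highest there. The smooth muscle and pericyte sum, given below, was lowest in JG sample 1 too, and its list also holds Rgs5. The part of any of these cells in the protease values was not tested.

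By their brightest probe sets Mmp14 and Mmp23 had the opposite order in JG, being lowest in sample 1 and highest in sample 2. Their other probe sets did not share it: those of Mmp14 were highest in JG sample 2 but lowest in JG sample 3, and that of Mmp23 was highest in JG sample 1 and lowest in JG sample 2. Smooth muscle and pericyte markers summed to 3120, 4514 and 4306 in JG samples 1 to 3 and to 15328 to 19855 in MSC, with 2 of the 7 called higher and 3 lower in JG, and their part was not tested either. Among the 22 members above 100 in a group, 11 (50%) were lowest in JG sample 2 and 10 (45.5%) highest in JG sample 1. Over all 9475 genes above 100 in a group these shares were 53.1% and 45.1%, so that the order of the JG samples was not particular to the proteases.

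**Figure D5:**
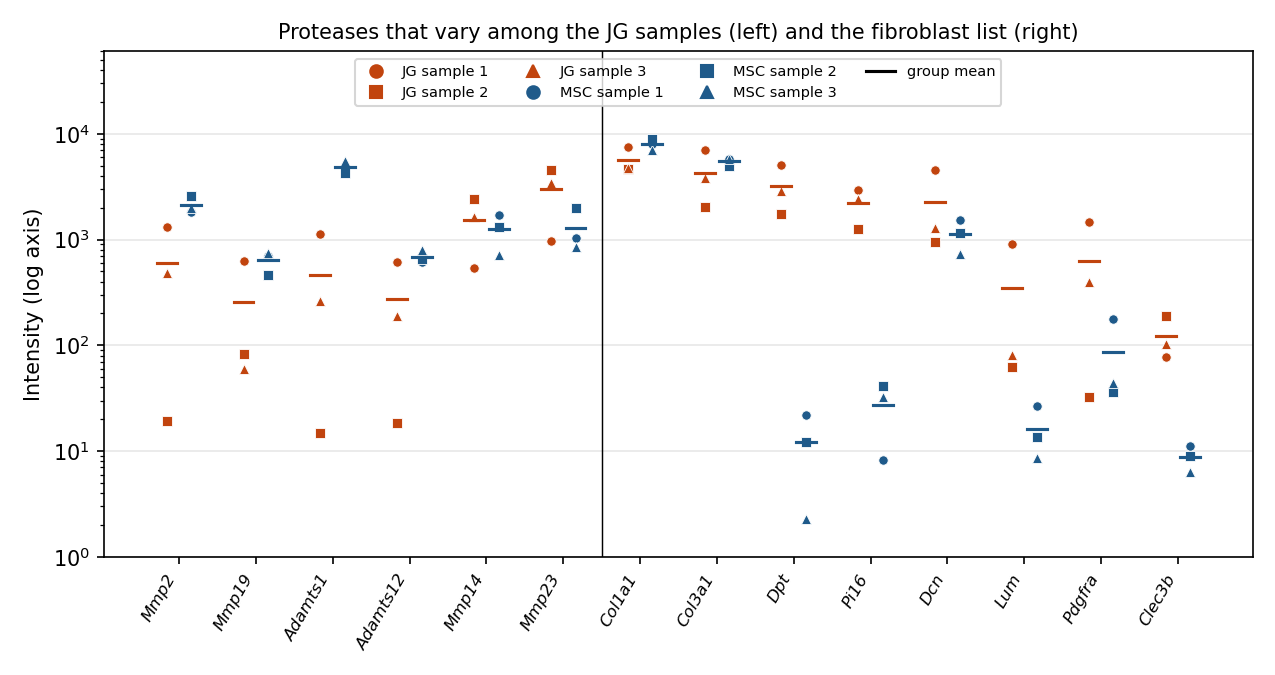
Intensity (log axis) of 6 proteases that vary among the JG samples, left of the line, and of the 8 fibroblast markers, right of it. Each point is 1 sample, JG in orange to the left of MSC in blue, and short lines are group means. JG sample 1 (circle) is the highest JG sample for Mmp2, Mmp19, Adamts1, Adamts12 and every fibroblast marker but Clec3b.

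Genes that activate, restrain or serve as substrates of these enzymes moved in both directions. Of 64 such genes measured on 6 lists, 9 were called higher in JG and 9 lower, against 7.7% and 7.63% of all genes, and their median difference was 0.23 beside 0.07 for all genes. For the unadjusted counts of the lists, 2788 of all 18193 genes were higher and 2996 lower at a limma p under 0.05. In the list of activators and the plasminogen system, 4 of 11 were called higher and 0 lower (limma, 4 and 1 at an unadjusted p under 0.05). Serpinf2, the plasmin inhibitor, had 599, 307 and 599 in JG and 1 to 2.30 in MSC. Plau, the urokinase that makes plasmin, had 3661, 1715 and 2500.3 in JG and 337 to 405 in MSC (2.67 ± 0.33, adjusted p = 0.00363 from limma). Plat and Plaur of the same list went the other way, with every JG value below every MSC value. Neither was called (-1.73 and -1.56, adjusted p = 0.164 and 0.0915 from limma).

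The proprotein convertase gene Pcsk5 (3.58) and the kallikrein gene Klk1 (6.17) were the other called genes of that list, which thus held 1 inhibitor among its called genes. Pcsk5 held its call in 1 of the 6 fits without a sample. Klk1 is also a product of the distal tubule, and loop and distal tubule markers summed to 8770 to 15258 in JG and to 38.47 to 59.69 in MSC. Their part in the Klk1 value was not tested.

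Other inhibitors and regulators were called lower in 4 of 13 cases and higher in 0, against 7.63% and 7.7% of all genes. Their counts were 6 and 3 at an unadjusted limma p under 0.05, and their median difference was -0.78. The 4 were the thrombospondin gene Thbs1 (-4.97), Rarres1 (-3.64), the hyaluronan receptor gene Cd44 (-2.68), which was also the antigen of the MSC sort, and Pcolce (-1.56), which enhances procollagen processing. Rarres1 had 1.53, 33.29 and 16.07 in JG and 347, 373 and 365 in MSC. Reck, a membrane-anchored MMP inhibitor, had 174, 49.45 and 131 in JG and 179, 105 and 85.71 in MSC, so the groups overlapped. Pcolce held its call in 2 of the 6 fits without a sample.

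Of 11 genes of the ADAM family, membrane-bound relatives of ADAMTS, 2 were called lower and 1 higher, against 7.63% and 7.7% of all genes. Adam12 had 243, 6.11 and 96.11 in JG and 1901, 1380 and 2201 in MSC (-4.39 ± 0.86, adjusted p = 0.0203 from limma), with JG sample 2 again the lowest. Adam19 was lower (-2.94) and Adam22 higher (1.40). These 3 calls held in 2, 3 and 1 of the 6 fits without a sample. Adam22 lost its call in 12 of 16 alternative settings. With probe sets averaged per gene its difference was 0.23 (adjusted p = 0.616 from limma).

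Astacin metalloproteinases were called higher in 2 of 5 cases and lower in 0, against 7.7% and 7.63% of all genes. Their counts were 2 and 1 at an unadjusted limma p under 0.05. Both called genes were meprin subunits, enzymes of the proximal tubule brush border. Mep1a had 972, 1128 and 1170 in JG and 30.53, 32.86 and 25.61 in MSC (4.60 ± 0.22, adjusted p = 0.0001 from limma). Mep1b had 173, 286 and 218 in JG and at most 19.97 in MSC. Like the proximal tubule markers given above, both meprin genes were higher in JG than in MSC. Among the JG samples both were lowest in sample 1. The summed proximal tubule markers were 30739, 23516 and 30618 in JG samples 1 to 3, nearly equal in samples 1 and 3. The part of tubule cells was not tested. Adamtsl2, which binds latent growth factor complexes, was the 1 of 6 ADAMTS-like genes called higher (1.45), with 33.49 to 47.45 in JG and 2.29 to 7.87 in MSC, and 0 were lower (limma, 2 and 0 at an unadjusted p under 0.05).

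Among 18 known substrates, the elastin gene Eln was called higher in JG, and Dag1, Col4a1 and Bgn were called lower. Eln had 191, 569 and 249 in JG and 15.48, 14.84 and 26.06 in MSC (3.21 ± 0.43, adjusted p = 0.00511 from limma). Dag1, the laminin receptor dystroglycan, had 1495, 423 and 919 in JG and 4157 to 4802 in MSC. The versican gene Vcan, a target of Adamts1, Adamts4 and Adamts5, had 975, 306 and 728 in JG and 817, 492 and 769 in MSC, and its groups overlapped (adjusted p = 0.847 from limma). Acan, the aggrecan gene, was at most 67.12 in JG and 3.51 in MSC. The calls of Dag1, Col4a1 and Bgn held in 2, 3 and 2 of the 6 fits without a sample, and that of Eln in all 6.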

How the data were processed

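Per the labels' protocols, RNA was isolated by Picopure and labelled cRNA was hybridised to Affymetrix arrays. The deposited values are 1 linear intensity for each probe set on each array, and the summarisation and scaling behind them were not given in the sources used. The annotation gives 1 gene for 34945 of the 45037 probe sets, several for 932 and none for 9160. From the deposited intensities, log2 values were computed here, and each gene was read by the probe set with the highest mean of log2 of the intensity plus 16 over 6 arrays. The contrast JG minus MSC was fitted over all 18193 genes by limma 3.58.1 (lmFit, eBayes; R 4.3.3), without covariates, further normalization or a filter, and adjusted by Benjamini-Hochberg. Probe sets of members were tested in a like fit over 34945 probe sets. The fit was tested on simulated data with known changes. The number of arrays limits the precision.

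The members, lists and tests were chosen with earlier results of these data known. Values in every sample are given for members called or above a mean of 100 in a group, and for others where a comparison needed them; of each related list, up to 4 called genes were named, and further ones after their values were seen. Figures were drawn with matplotlib 3.10.9.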

Additional observations from a re-analysis of the deposited data

How the results depend on the processing

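Adamts4, Timp1, Mmp11, Mmp13 and Adamts6 kept their call in every setting in which they were tested (Mmp13 and Adamts6 were not tested with genes under the median left out), and Mmp10 lost it without JG sample 3, without MSC sample 2, with a pseudocount of 64 or with an unmoderated t statistic (adjusted p = 0.0614, 0.0760, 0.0803 and 0.0926). The members called lower in JG numbered 5 to 10 in fits without a sample, 10 with array weights and 4 with genes under the median left out. Those called higher, 0 as reported, numbered 0 to 2 without a sample, 2 with a pseudocount of 1 (Adamts16 and Mmp1b), 2 with array weights (Adamts16 and Timp4), 1 with probe sets averaged per gene (Adamts16) and 1 with an unmoderated t statistic (Mmp1b). Of all genes, array weights called 17.6% higher and 16.3% lower, a pseudocount of 1 8.32% and 5.97%, and averaged probe sets 7.68% and 9.39%. The fits without a sample called 3.95% to 14% of all genes higher and 2.26% to 14.5% lower, both shares being largest without JG sample 1. With genes under the median left out, 12.8% of the genes tested were called higher and 14.2% lower. Without JG sample 1 the 10 lower members added Adamts1, Adamts12, Mmp2 and Mmp19, and the 2 higher were Adamts16 and Mmp23. Without JG sample 2, Adamts1 was added lower and Adamts15 higher. Members whose groups did not overlap numbered 6 with genes under the median left out (where the median difference of all genes was -0.28), 14 to 16 in the other settings and 16 to 20 without a sample. With genes under the median left out, fewer members were tested. Groups that do not overlap with all samples cannot overlap with fewer, so the counts without a sample cannot be lower for any gene. Shares of all genes whose groups did not overlap are not given for these settings, and nothing about the members is read from these counts.

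The calls over all genes, 2790, became 1139 to 5194 without a sample, 6177 with array weights and 1314 with an unmoderated t statistic. Samples of the same number did not pair (deviations from the group means correlated at -0.197, -0.00927 and -0.00753), and with the replicate block the calls became 1613, and the 6 called members kept their calls; among other named genes, Pcsk5, Pcolce, Adam22, Adamtsl2, Col4a1 and Bgn and the called further probe sets of Timp3, Mmp16 and Adamts10 lost theirs. Genes of the related lists called higher and lower became 19 and 18 with array weights and 6 to 14 and 3 to 17 without a sample, and 4 were lower with an unmoderated t statistic. The shares of all genes were 17.6% and 16.3% with array weights, and 3.95% to 14% and 2.26% to 14.5% without a sample. With the unmoderated t statistic 2.76% of all genes were lower. Differences that changed sign belonged to genes that were not called in either case. With probe sets averaged per gene, Adamts10 was -0.64, Mmp14 -0.88, Mmp23 -0.40 and Mmp24 0.27, and with quantile normalization Mmp24 was 0.035. Without 1 sample, Adamts10 ranged from -0.39 to 1.05, Mmp14 from -0.33 to 0.74, Mmp24 from -0.32 to 0.13 and Adamts5 from -0.48 to 0.12. The causes were not tested. How far intensities below 16 carry signal was not tested, which limits the dim members.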
